A study of Mus musculus with 5 samples.

Results

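The comparison described here is between 2 Tmsb4x knockout clones of B16F1, a mouse melanoma cell line, each measured once after the same treatment. It used 2 of the 5 arrays of the series. One array held clone 1 and the other held clone 2, both given 10 ng/ml TGF-β1 for 2 days. The other 3 arrays held wild-type B16F1 cells given vehicle, 10 ng/ml TGF-β1 for 2 days, or TGF-β1 together with 10 µM CCG1423, an inhibitor of MRTF signalling, and served as reference levels. The labels' treatment field for the last of these names CCG1423 alone, while its title and description name both agents. Titles and genotype labels call the clones knockouts and the design text speaks of knockdown. Each knockout group is 1 clone with 1 array, and neither the method of editing nor the edited part of the gene is stated in the sources used here. Neither clone has a vehicle array, so the clones could be compared only under TGF-β1.

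Levels are log2 of the scanner software's processed signal minus the 75th percentile of the array, so a level of 0 is the signal at that percentile. Where 3 wild-type levels are given together, they are in the order vehicle, TGF-β1, and TGF-β1 with CCG1423. A gene is represented by its brightest probe and was kept when that probe was well above background on at least 1 clone array. This kept 13849 of the 22907 genes with a probe. Of these, 12368 were above background on both clones, 1089 on clone 1 alone and 392 on clone 2 alone. With 1 array per clone there is no test and no replicate error. A difference is called when it reaches 2-fold, and for a gene above background on 1 clone only it is a lower bound against the floor of the other array, written as "at least". The error given with a difference is the scanner software's own, with a median of 0.20 on the log2 scale for genes on both arrays. Repeated spots of 285 probes had a median SD of 0.045 in clone 1 and 0.039 in clone 2. Different probes of the same gene gave clone differences with a median SD of 0.10 over 4607 genes. These errors do not include the spread between cultures, which was not measured.

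The 75th percentile of signal was 280.8 in clone 1 and 329.3 in clone 2, and 52.2% and 48.2% of probes were above background. The faintest signal called above background was 15.3 in clone 1 and 26 in clone 2. No spot was saturated. By their headers the 5 arrays share a slide and a scan, with clone 2 at a slide position apart from the run of positions that the other 4 share, so position and clone 2 cannot be told apart. The 7 genes that define melanocytes (Tyr, Tyrp1, Dct, Pmel, Mlana, Mitf and Sox10) were above background on all 5 arrays, and their summed linear level was 2660 in clone 1 and 2690 in clone 2. In bulk RNA, fewer cells expressing a gene and less RNA per cell cannot be told apart.

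Tmsb4x encodes thymosin β4, a small peptide that holds actin monomers in a pool unavailable for polymerisation. Actin monomers in turn retain the coactivator MRTF in the cytoplasm, and MRTF with SRF drives cytoskeletal genes. Several of the programs that differed most between the clones belong to the interferon system. There, sensors of foreign nucleic acid induce interferons, interferons act through JAK kinases on STAT factors and IRF9, and these bind an interferon-stimulated response element in front of many genes whose products block viral replication.

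The targeted gene was measured by 1 probe. The level of Tmsb4x was 5.05 in wild-type cells given vehicle, 7.12 after TGF-β1, 6.79 after TGF-β1 plus CCG1423, 5.44 in clone 1 and 4.28 in clone 2. Both clones lay below the wild-type cells given the same treatment, by 1.68 in clone 1 and 2.84 in clone 2, and clone 1 remained above wild-type cells given vehicle. Tmsb4x was 2.23-fold lower in clone 2 than in clone 1 (log2 difference -1.16, software error 0.20). With the scaling of the authors' deposited value table the difference was -0.84, which is under 2-fold. Since the edited part is unknown, a remaining signal does not check the knockout itself. Tmsb10, the related β-thymosin, was at 9.22 in clone 1 and 8.96 in clone 2, a difference of -0.26. Tmsb15a, another β-thymosin, was above background in clone 1 only, at least 4.26-fold higher there.

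Between the clones, 587 genes (4.24%) were higher in clone 2 and 462 genes (3.34%) were higher in clone 1 by 2-fold or more, together 1049 genes or 7.57%. Background correction by normexp gave 271 and 222 genes, and no filter on dim probes 1506 and 845. Among genes on both arrays the counts were 307 (2.48%) and 236 (1.91%). Counts of called list members given below are to be read against the shares of all genes, 4.24% higher in clone 2 and 3.34% higher in clone 1. The median difference of all genes was -0.05. The authors' deposited value table multiplies each array by its own constant and is not scaled to the 75th percentile. It moved that median to 0.27 and the counts to 1085 and 281, so list medians just below 0 turn positive with it. Small shifts of whole lists are therefore read here against the median of all genes. Of 185 called genes with at least 2 probes kept, all probes differed in the same direction for 162 and all reached 2-fold for 110. These counts leave out probes above background in neither clone, of which Oas2, Parp14, Parp9, Tap2, Trim34a, Vldlr, Prkg2, Fgf1 and Fgfr1 had at least 1 that differed by less than 2-fold or in the other direction. Bright genes sat slightly lower in clone 2: the median difference was 0.04 in the dimmest and -0.18 in the brightest of 8 equal groups of genes on both arrays.

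**Figure D1:**
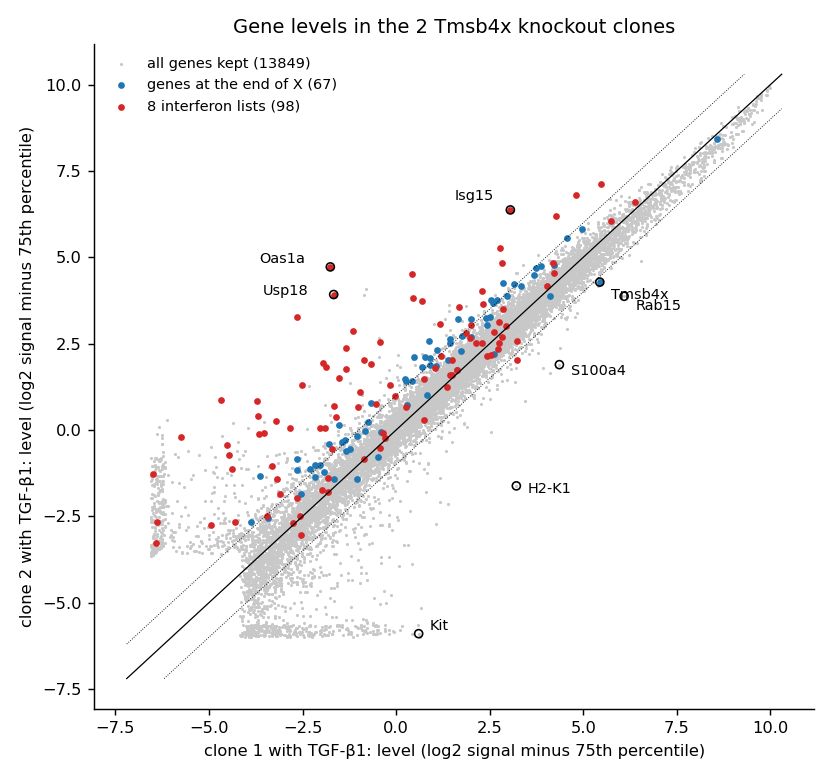
Level of each of 13849 genes in clone 1 (x axis) and clone 2 (y axis), both as log2 signal minus the array's 75th percentile; the solid line marks equal levels and dotted lines mark 2-fold. Red points are the 98 measured genes of 8 interferon lists, which lie mostly above the upper dotted line, and blue points are 67 genes at the end of the X chromosome; the bands at the left and bottom edges are genes above background on 1 clone only.

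Each clone was also set against the wild-type array with TGF-β1, which both comparisons share. In clone 1, 642 genes (4.52%) were higher and 475 (3.34%) lower by 2-fold or more than in wild-type cells, and in clone 2 the counts were 665 (4.74%) and 383 (2.73%). Of the 299 genes higher in clone 2 that were also measured in wild-type cells, the wild-type level lay between the clones for 229 and nearer to clone 1 for 155 (51.8%). Of the 234 higher in clone 1, it lay between for 158 and nearer to clone 1 for 97 (41.5%).

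Many genes of the interferon system were higher in clone 2, and 3 of their lists had the largest medians of all lists summarised. All lists were chosen with earlier results of these data known. The 8 lists pooled here (nucleic acid sensors, oligoadenylate synthetases, antiviral effectors, ISG15 conjugation, interferon-inducible GTPases, interferon-induced chemokines, receptors with JAK-STAT, and interferon regulatory factors) held 130 genes, of which 98 were measured. Of these 98, 55 (56.1%) were higher in clone 2 and 1 was higher in clone 1 by 2-fold or more, against 4.24% and 3.34% of all genes. Their median difference was 1.57, or 1.38 with genes above background on 1 clone set at their bound, against -0.05 for all genes. Of the 98, 86 were above 0 and 12 below. The genes not on both arrays passed the filter through clone 2 alone, so the filter largely fixed their direction. Over the 88 on both arrays the median was 1.10, against -0.02 for all such genes. Of these 88, 46 were higher in clone 2, against 2.48% of all genes on both arrays. The 55 genes lay on 15 chromosomes and made up 9.37% of all genes higher in clone 2. Within the pool, receptors with JAK-STAT and interferon regulatory factors had medians of only 0.08 and 0.10. Left out of the pool were interferon ligands (median -0.65), brakes on interferon signalling (0.12) and MHC class I presentation (0.11). The pooled counts therefore depend on which lists were pooled.

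The wild-type level lay between the clones for most of these genes. The median of the 98 genes relative to wild-type cells with TGF-β1 was -0.83 in clone 1 and 0.67 in clone 2. By 2-fold or more, 46 of 100 measured were lower and 2 higher in clone 1, against 3.34% and 4.52% of all genes. In clone 2, 34 of 102 were higher and 2 lower, against 4.74% and 2.73% of all genes. Against wild-type cells given vehicle, the median was -0.32 in clone 1, 1.25 in clone 2 and 0.48 in wild-type cells with TGF-β1. Of the 46 genes higher in clone 2 and measured on both clones and in wild-type cells with TGF-β1, 44 had that wild-type level between the clones, 46 were above the vehicle level in clone 2 and 37 were below it in clone 1.

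The promoters of 4 of these genes are shown because each holds the motif of that element at least 2 times. They are RefSeq promoters on build GRCm38.p6, from 250 bases before to 50 bases after the gene start, 5′ to 3′ on the gene's strand, and capitals mark each match to the core of the interferon-stimulated response element. That core was searched as the letters GAAA, any 2 bases and GAAA again, on both strands, and overlapping matches are joined.
Oas1a, chr5:120907476-120907775, minus strand: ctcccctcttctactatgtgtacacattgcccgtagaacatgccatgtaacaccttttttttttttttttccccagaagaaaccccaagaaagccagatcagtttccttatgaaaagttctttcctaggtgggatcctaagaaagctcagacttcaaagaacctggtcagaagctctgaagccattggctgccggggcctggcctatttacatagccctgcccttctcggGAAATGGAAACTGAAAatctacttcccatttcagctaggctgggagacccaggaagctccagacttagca
Isg15, chr4:156200769-156201068, minus strand: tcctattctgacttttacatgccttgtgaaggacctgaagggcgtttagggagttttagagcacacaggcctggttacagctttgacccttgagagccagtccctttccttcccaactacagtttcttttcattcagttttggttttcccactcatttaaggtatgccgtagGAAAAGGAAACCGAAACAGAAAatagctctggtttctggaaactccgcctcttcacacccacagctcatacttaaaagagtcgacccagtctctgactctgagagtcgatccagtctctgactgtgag
Ifit1, chr19:34640639-34640938, plus strand: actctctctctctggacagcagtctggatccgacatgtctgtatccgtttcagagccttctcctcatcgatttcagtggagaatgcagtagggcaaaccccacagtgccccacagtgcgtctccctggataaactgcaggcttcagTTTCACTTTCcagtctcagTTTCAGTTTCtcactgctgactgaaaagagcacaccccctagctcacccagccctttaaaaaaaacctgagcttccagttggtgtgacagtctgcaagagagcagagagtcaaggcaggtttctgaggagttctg
Irgm1, chr11:48871371-48871670, minus strand: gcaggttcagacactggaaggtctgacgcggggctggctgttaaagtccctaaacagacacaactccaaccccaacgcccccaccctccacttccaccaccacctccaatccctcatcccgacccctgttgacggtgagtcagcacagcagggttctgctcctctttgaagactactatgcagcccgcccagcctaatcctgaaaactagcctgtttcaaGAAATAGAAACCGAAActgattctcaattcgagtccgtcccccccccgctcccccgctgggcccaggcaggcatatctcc
Isg15 held 3 overlapping matches and each of the other promoters held 2. In Ifit1 the matches lie on the opposite strand. Of the 27025 genes with a promoter in the table, 3.99% held the motif, and of 11041 genes kept in the comparison 3.59% did. Among genes higher in clone 2 it was 48 of 459 (10.5%), and among genes higher in clone 1 it was 9 of 374 (2.41%). Of the pooled interferon genes, 74 had a promoter in the table. Within these the motif was present in 24 of the 40 that were higher in clone 2 (60.0%) and in 8 of the other 34 (23.5%). All 7 GTPase promoters held it, as did 15 of 30 effector promoters. The promoters of Irf7 and Oasl2 held no match in this window. A match is a description of the sequence and not evidence of binding.

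The interferon genes themselves gave little to compare, and the receptors differed little. Of 11 interferon genes listed, 5 passed the filter, with a median of -0.65 (-0.48 with bounds), and 2 were past 2-fold. Only Ifnl3 was above background on both clones, at -0.48. Ifna1, Ifna5, Ifnk and Ifng passed the filter through clone 1 alone, so the filter largely fixed their direction. The bounds of Ifna1 and Ifna5 were 1.08-fold each. Of the rest, Ifnb1, Ifna2, Ifna4 and Ifne were not well above background in either clone. Ifng and Ifnk were above background in clone 1 alone, both at -0.77 against -5.56 and -5.59 in clone 2, at least 7.42-fold and 7.41-fold higher in clone 1. The Ifnk level was -0.57 in wild-type cells with vehicle and -6.46 with TGF-β1. These are dim signals of 1 probe each. The receptor chains Ifnar1 (-0.24), Ifnar2 (-0.37), Ifngr1 (0.11) and Ifngr2 (-0.28) and the kinases Jak2 (0.24) and Tyk2 (0.08) differed by less than 2-fold, as did Jak1 at -0.66. The median of the 12 receptor and JAK-STAT genes was 0.08.

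The factors that act below the receptors differed unequally: Stat2 by 0.41, below the call, and Irf9 by 1.89 (3.70-fold). Irf9 stood at 1.17 in clone 1 and 3.06 in clone 2 with wild-type levels of 1.61, 2.65 and 1.59. Irf7, the factor that amplifies interferon-α production, was at -0.62, 1.25 and -0.13 in the wild-type arrays, -1.15 in clone 1 and 2.85 in clone 2, a 16-fold difference. For Irf9 and Irf7 clone 2 was the highest array and clone 1 the lowest. The other regulatory factors named here (Irf1, Irf2, Irf3 and Irf4) differed by between -0.52 and 0.35, and the median of the 7 measured was 0.10.

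Of 15 measured sensors of nucleic acid, 5 were past 2-fold, all higher in clone 2. Ddx58, which encodes RIG-I, was at 2.04, 2.52 and 1.80 in wild-type cells with vehicle, TGF-β1, and TGF-β1 with CCG1423. It was at 0.44 in clone 1 and 3.83 in clone 2, a 10.4-fold difference whose 4 probes ranged from 2.55 to 3.39. Ifih1, encoding MDA5, differed 11.7-fold and Dhx58, encoding LGP2, at least 11.1-fold. Zbp1, a sensor of Z-form nucleic acid, differed 4.76-fold and Adar, which edits double-stranded RNA, 2.04-fold; both are named after their values were seen. All 15 sensors were above 0, and the median was 0.92. Those that were not past 2-fold included the DNA sensing pair Cgas (0.14) and Sting1 (0.36), the adaptor Mavs (0.68), the kinase PKR (Eif2ak2, 0.95) and the endosomal receptors Tlr3 (0.97), Tlr7 (0.11) and Tlr9 (0.24).

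The oligoadenylate synthetases, which make a second messenger of the antiviral response, had the largest list median, 3.37, or 2.98 with bounds and 1.90 with normexp background correction. Oas1a was at 1.43, 2.51 and 1.42 in wild-type cells, -1.76 in clone 1 and 4.72 in clone 2, an 89.1-fold difference (6.48, software error 0.21). Oas1f was at 0.07, 0.94 and 0.06 in wild-type cells, -2.66 in clone 1 and 3.27 in clone 2, a 60.9-fold difference. In both, clone 1 was below and clone 2 above all 3 wild-type arrays, by more than 2 log2 units each. Of 10 genes of the list measured, 8 were higher in clone 2: Oasl1 by 12.9-fold, Oasl2 by 8.28-fold, Oas1c by 2.26-fold, and Oas1g, Oas2 and Oas1e by at least 16-fold, 7.54-fold and 2.91-fold. Oas1d differed by 0.67. Relative to wild-type cells with TGF-β1 the list median was -1.84 in clone 1 and 1.53 in clone 2. Oas1 genes are related in sequence, and each was measured by a single probe except Oas1c, so a probe may read a relative.

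Antiviral effectors had a median of 1.93 (1.74 with bounds), with 25 of 37 higher in clone 2 and 1 higher in clone 1. Rtp4 was at 1.87, 3.78 and 1.39 in wild-type cells, 0.42 in clone 1 and 4.51 in clone 2, a 17-fold difference. The IFIT proteins bind foreign RNA, and 3 of their genes were among the most different: Ifit3b by 16.8-fold, Ifit3 by 13-fold and Ifit1 by 11.1-fold. Ifit2, a neighbour of these genes, had the same level of -0.85 in both clones, and Ifit1bl2 differed by -0.08. Rsad2, encoding viperin, differed 7.36-fold (0.10, 0.76 and -0.05 in wild-type cells, -0.86 in clone 1 and 2.02 in clone 2). Bst2, or tetherin, and Ifitm3, which act on virus release and entry, differed 3.81-fold and 5.57-fold.

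Further effectors past 2-fold included Xaf1 (7.95-fold), Cmpk2 (3.89-fold), Ifi44 (3.34-fold), Ifi35 (3.34-fold), Ifi27 (3.17-fold), Lgals3bp (3.98-fold) and Lgals9 (2.49-fold). The interferon-induced ADP-ribosyltransferases Parp14, Parp12, Parp10 and Parp9 differed 10.8-fold, 5.13-fold, 3.98-fold and 2.80-fold. Trim30a was above background in clone 2 alone, at least 33.6-fold higher, and Trim34a and Trim21 differed 7.48-fold and 2.45-fold. Effectors that did not reach 2-fold were Isg20 (0.14), Sp110 (0.22), Nmi (0.24), Ogfr (0.31), Pnpt1 (0.53), Shisa5 (0.64), Tor3a (0.73) and Slfn9 (-0.44), and Slfn5 was above background in clone 2 alone with a bound of 1.89-fold. Several of these had levels in clone 1 close to or above those in wild-type cells, such as Isg20 at 4.04 in clone 1 against 3.37 with TGF-β1.

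The ubiquitin-like modifier system was split. Isg15 encodes the modifier itself and was at 2.97, 5.02 and 3.62 in wild-type cells, 3.05 in clone 1 and 6.37 in clone 2 (9.98-fold). Usp18, the protease that removes ISG15 and also restrains the interferon receptor, was at 0.31, 2.16 and 0.92 in wild-type cells, -1.67 in clone 1 and 3.92 in clone 2 (48.1-fold). Uba7, the enzyme that activates ISG15, went the other way, at 0.80, 1.95 and 2.44 in wild-type cells, 3.22 in clone 1 and 2.03 in clone 2, 2.29-fold higher in clone 1. It was the one pooled interferon gene called in that direction. The other conjugation genes, Ube2l6 (0.73) and Herc6 (0.43), did not reach 2-fold.

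The interferon-inducible GTPases, which attack the vacuoles of intracellular pathogens, had a median of 3.25 (3.06 with bounds, 1.79 with normexp and 1.87 with no filter on dim probes), with 8 of 9 higher in clone 2. Tgtp2 differed 23.4-fold, Igtp 14.8-fold, Gbp3 14.2-fold, Irgm2 8.54-fold, Gbp2 4.20-fold and Irgm1 3.65-fold, and Gbp7 and Iigp1 differed at least 8.34-fold and 2.87-fold. Irgm1 was at 1.73, 3.06 and 0.32 in wild-type cells, 1.68 in clone 1 and 3.55 in clone 2, and its 3 probes gave differences of 1.87 to 1.88. Gbp10 differed by 0.24. All 4 measured members of the chemokine list were higher in clone 2, with a median of 2.14, or 1.23 over the 3 on both arrays. Ccl2, which recruits monocytes, was not well above background in clone 1 and was at least 13.5-fold higher in clone 2. Ccl2 in clone 2 (-0.44) nevertheless lay below wild-type cells with TGF-β1 (0.40). Ccl5 differed 8.32-fold (2.00, 2.28 and 1.39 in wild-type cells, 0.68 in clone 1 and 3.74 in clone 2), Cd274, encoding the checkpoint ligand PD-L1, 2.35-fold, and Cxcl10 2.02-fold.

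**Figure D2:**
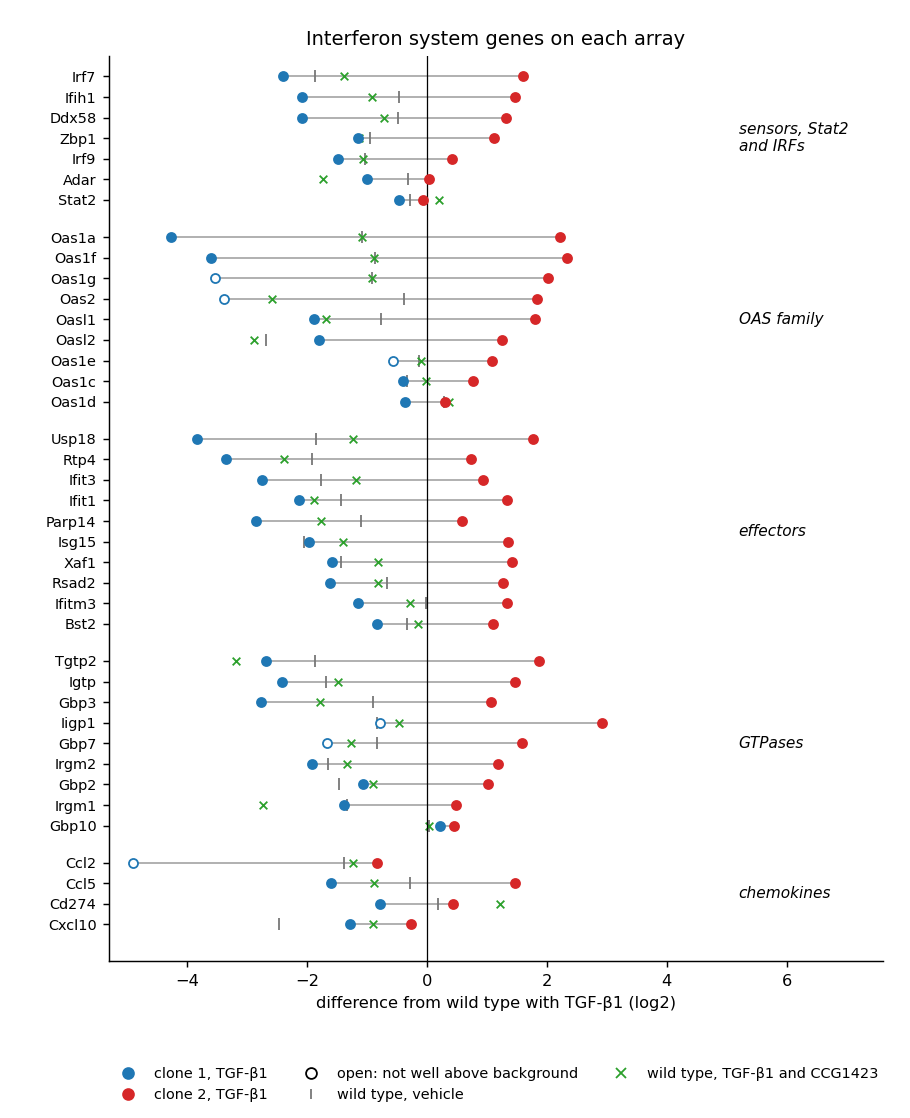
Difference of each array from wild-type cells with TGF-β1 (x axis, log2) for interferon system genes (rows); blue circles are clone 1, red circles clone 2, open circles clone signals not well above background, grey bars wild type with vehicle and green crosses wild type with TGF-β1 and CCG1423 (background calls are not drawn for the wild-type marks). For most genes clone 1 lies left of 0 and clone 2 right of it, as for Oas1a with clone 1 at -4.26 and clone 2 at 2.21.

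Of the 11 brakes on interferon signalling, Usp18 was the 1 gene past 2-fold, and the median of the 11 with Usp18 included was 0.12. The others included Socs1 at 0.73, Cish at 0.40 and Socs3 at -0.05, and Socs2, named after its value was seen, at 1.00, just under the call. The apolipoprotein L genes Apol9a and Apol9b, outside the lists, had the same order of arrays. Apol9a was at -0.30, 1.75 and -0.76 in wild-type cells, -0.87 in clone 1 and 3.91 in clone 2 (27.5-fold), and Apol9b differed 29.8-fold. These are near-identical copies. Trim12a, another tripartite motif gene, was 4.13-fold higher in clone 2 but had 1.17 in wild-type cells with TGF-β1 and 1.02 in clone 1.

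The genes for presenting peptides on MHC class I did not move as one. The median of 20 genes was 0.11, with 4 higher in clone 2 and 1 higher in clone 1. The peptide transporter Tap1 was 6.26-fold and Tap2 at least 2.85-fold higher in clone 2, the loading chaperone Tapbp was 2.43-fold higher, and the trimming peptidase Erap1 passed 2-fold as a bound. B2m, the light chain of every class I molecule and named after its value was seen, was at 5.12 in clone 1 and 5.99 in clone 2, a difference of 0.87. H2-K1, a classical heavy chain, was at 1.30, 1.58 and 1.41 in the wild-type arrays, 3.21 in clone 1 and -1.62 in clone 2, 28.5-fold higher in clone 1. Clone 1 was thus above and clone 2 below all wild-type arrays. A second H2-K1 probe gave -1.37, so the direction was shared and the size was not. H2-D1 (0.16), H2-T22 (0.41) and H2-Q7 (0.00) did not follow it. H2-T23 (-0.31) and H2-Q4 (-0.64) shared its direction without reaching 2-fold. H2-Q4 was at 6.20 in clone 1, 5.56 in clone 2 and 5.58 to 5.76 in wild-type cells. H2-Q4 and H2-T22 are named after their values were seen. H2-DMb1, which loads class II, was 6.24-fold higher in clone 2 and was the only class II gene measured.

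Markers of immune cells did not accompany the interferon genes. Of 20 such markers, 7 were above background in each clone, their summed linear level was 46.5 in clone 1 and 39.8 in clone 2, and it lay between 37.2 and 46.5 in wild-type arrays. Ptprc, Cd3g, Ms4a1, Lyz2 and Tyrobp were not well above background on any array. Ncr1 was above background in clone 2 alone, at least 8.91-fold higher. Fibroblast markers summed to 20.7 in clone 1 and 3.92 in clone 2, most of it from S100a4, and Pdgfra, Pdgfrb, Dcn and Col3a1 were not well above background on any array. Endothelial markers summed to 2.75 and 6.93, mostly from Vwf, which was 2.65-fold higher in clone 2, while Cdh5, Kdr and Tek were not above background.

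**Figure D3:**
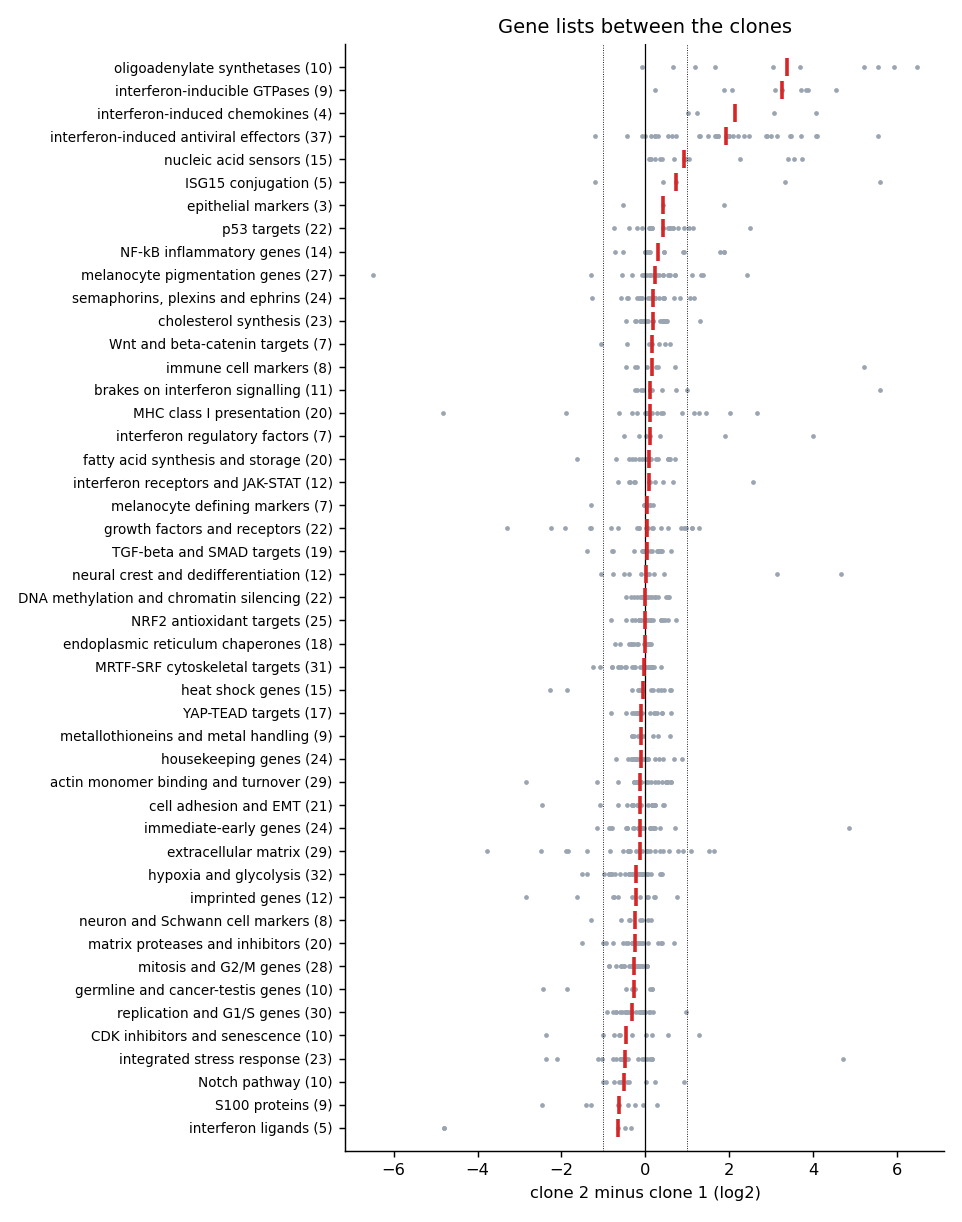
Difference between the clones (x axis, log2, clone 2 minus clone 1) for each measured gene of each list (grey points) with the list median (red bar); numbers after list names are genes measured and dotted lines mark 2-fold. The interferon target lists stand at the top, with medians from 1.93 to 3.37, while most other medians lie within 0.5 of 0; genes above background on 1 clone only are drawn at their measured difference.

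Growth factors and their receptors did not move one way. Over 22 of these genes 3 were called in each direction, and the median was 0.04. Etv5, an ETS factor induced by receptor tyrosine kinase signalling through ERK, was at 3.68, 2.30 and 1.19 in wild-type cells, 1.40 in clone 1 and 3.61 in clone 2, a 4.62-fold difference. Its relative Etv4, outside the naming rule and picked after its value was seen, differed 8.63-fold (0.95 with TGF-β1, -0.45 in clone 1 and 2.66 in clone 2; both probes between 3.11 and 3.51). Dusp6, an ERK phosphatase induced in the same setting, differed by 0.71, Spry2 by -0.43, and the median of 24 immediate-early genes was -0.13 with Egr3 at least 5.94-fold higher in clone 2 by its brightest probe (its other 2 probes, at -5.65 and -5.68 in clone 2, were not above background in either clone) and Junb 2.22-fold higher in clone 1. Met, the receptor of hepatocyte growth factor, was 2.18-fold and Fgf1 2.17-fold higher in clone 2, and Fgfr1 was 2.46-fold higher in clone 1.

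Inflammatory genes had a median of 0.29 over 14 measured, against -0.05 for all genes, and of 0.12 over the 13 on both arrays. Of the 14, 3 were higher in clone 2 and none was higher in clone 1, against 4.24% and 3.34% of all genes. Csf1, the macrophage growth factor, was at 0.61, 1.72 and 1.71 in wild-type cells, -0.28 in clone 1 and 1.5 in clone 2 (3.44-fold), and Cxcl1 differed 3.65-fold (1.88 with TGF-β1, 0.01 in clone 1 and 1.88 in clone 2). In both, clone 2 was near wild-type cells with TGF-β1 and clone 1 was below all 3 wild-type arrays. Saa3 was the third, at least 2.82-fold higher in clone 2. The NF-κB inhibitor gene Nfkbia differed by -0.02 and Tnfaip3 by -0.72.

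Targets of p53 had a median of 0.43 over 22 measured, with 3 higher in clone 2, none higher in clone 1 and 18 above 0, against 4.24% and 3.34% of all genes called in these directions. Eda2r, a death receptor of the TNF receptor family, differed 5.61-fold (2 probes at 1.08 and 2.49), Zmat3 2.19-fold and Plk3 2.04-fold. Ccng1 (0.92), Trp53inp1 (0.78), Cdkn1a (0.54), Mdm2 (0.42) and Phlda3 (0.42) were below the call, and Bax (-0.38) and Rrm2b (-0.75) were lower in clone 2. Cdkn1a was above wild-type cells with TGF-β1 by 0.64 in clone 1 and 1.18 in clone 2.

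Cell cycle genes were slightly lower in clone 2 without any reaching 2-fold. The replication and G1/S list had a median of -0.33 over 30 genes, with 25 below 0, and the mitosis and G2/M list had a median of -0.27 over 28 genes, with 25 below 0. With the scaling of the deposited table these became -0.01 and 0.05, against 0.27 for all genes. The lowest were the replication gene Cdc45 (-0.91) and Ccnb2 and Cenpa (both -0.87), while Ccnd1, the cyclin of early G1, was the highest at 0.96. Ccnd1 was 1.09 lower in clone 1 and 0.13 lower in clone 2 than in wild-type cells with TGF-β1.

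Genes of the integrated stress response were lower in clone 2, with a median of -0.49 over 23 genes (-0.17 with the deposited table's scaling), 18 below 0, 4 called higher in clone 1 and 1 higher in clone 2. Gdf15, a secreted stress factor, was at 0.36, -0.76 and 2.22 in wild-type cells, -0.38 in clone 1 and -2.76 in clone 2 (5.19-fold). Nupr1 (2.20-fold), Fgf21 (at least 3.15-fold) and Ddit3 (difference -1.03) were the others higher in clone 1, and the amino acid genes Psat1 (-0.77), Asns (-0.57) and Phgdh (-0.53) and the factor Atf4 (-0.42) were below the call. Vldlr was at least 6.17-fold higher in clone 2, though both clones lay below all wild-type arrays. It was at 0.29, 0.16 and 0.84 in wild-type cells, -6.28 in clone 1 and -1.57 in clone 2. Its other probe, not above background in either clone, differed by 0.30. Hypoxia and glycolysis genes had a median of -0.23 over 32 (0.09 with the deposited table's scaling), with 26 below 0. Egln3, an oxygen-sensing hydroxylase, and Ankrd37 were 2.86-fold and 2.64-fold higher in clone 1. The list lay above wild-type cells with TGF-β1 in both clones, with medians of 0.55 in clone 1 and 0.28 in clone 2.

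Among S100 calcium-binding proteins, 3 of 9 were higher in clone 1 and none was higher in clone 2, against 3.34% and 4.24% of all genes. Their median was -0.63 (-0.41 with the bound, -0.31 with the deposited table's scaling). S100a4, linked to cell motility and metastasis, was at 6.91 after vehicle, 6.49 after TGF-β1, 5.33 after TGF-β1 plus CCG1423, 4.36 in clone 1 and 1.89 in clone 2, a 5.54-fold difference. S100a6 was at 4.15, 3.85 and 4.26 in wild-type cells, 2.83 in clone 1 and 1.42 in clone 2 (2.66-fold). For both, each clone lay below all wild-type arrays and clone 2 was the lower. S100b, a melanoma marker, had both clones above wild-type cells, at 3.06 in clone 1 and 1.77 in clone 2 against 0.04 to 1.36.

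Pigmentation genes differed gene by gene. The median over 27 was 0.22, with 4 higher in clone 2 and 2 higher in clone 1. Oca2, a melanosome channel, was at -0.39, -2.56 and -2.74 in wild-type cells, -2.39 in clone 1 and 0.04 in clone 2 (5.37-fold). Rab38 and Gpr143, which act in melanosome formation, differed 2.52-fold and 2.60-fold, and Met was the fourth. Kit, the receptor for stem cell factor, was above background in clone 1 at 0.60 and not in clone 2, at least 19.2-fold higher in clone 1. The wild-type levels of Kit were -0.51, -1.05 and -1.61. Tyr, encoding tyrosinase, was at 0.91, -0.80 and -1.65 in wild-type cells, 1.11 in clone 1 and -0.18 in clone 2 (2.45-fold). The lineage factors Mitf (0.10), Sox10 (0.19) and Pax3 (0.22) and the pigment genes Dct (-0.03), Tyrp1 (0.04), Pmel (-0.04) and Mlana (0.10) differed by 0.22 or less.

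Matrix and TGF-β genes showed large differences in few members. Postn, a matricellular protein of wound and tumour stroma, was at -0.69, 1.28 and 1.86 in wild-type cells, 1.06 in clone 1 and -2.72 in clone 2, 13.7-fold higher in clone 1, and its 3 probes ranged from -3.77 to -2.44. On all 3 probes clone 2 was below clone 1 and both wild-type arrays with TGF-β1. Clone 2 was below wild-type cells with vehicle on this probe but above them on the other two, at -2.27 against -3.90 and -3.44 against -5.51, the last probe not being well above background in clone 2. Lama5 and Col1a1 were 3.60-fold and 2.64-fold and Col5a3 at least 5.60-fold higher in clone 1, whereas Col8a1 and Thbs1 were 2.86-fold and 2.12-fold higher in clone 2. The median of 29 matrix genes was -0.13 (0.19 with the deposited table's scaling). Col1a1 was the only 1 of 19 TGF-β and SMAD targets past 2-fold, and the list median was 0.04. Bambi (-0.80), Smad7 (-0.09), Skil (-0.05) and Id1 (0.27) did not reach it. Acvrl1, a type I receptor for BMP9 and TGF-β, was 5.46-fold higher in clone 1 (3.30, 3.25 and 2.42 in wild-type cells, 4.11 in clone 1 and 1.66 in clone 2).

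The cytoskeletal targets of MRTF and SRF, the pathway in the title of the series, had nearly equal levels in the clones. The median difference of 31 genes was -0.04 (0.28 with the deposited table's scaling, against 0.27 for all genes), with none higher in clone 2 and 1 higher in clone 1. These counts are near the shares of all genes, 4.24% and 3.34%, and do not set the list apart. Relative to wild-type cells with TGF-β1 the median was -0.52 in clone 1 and -0.51 in clone 2. Acta2 was 0.59 lower in clone 1 and 0.50 lower in clone 2 than those cells, Vcl 0.61 lower in each, and Myl9 1.54 and 1.99 lower. The called gene was Tpm1, 2.11-fold higher in clone 1, whose 3 probes ranged from -1.07 to 0.13. YAP and TEAD targets had a median of -0.10 with none called over 17, and actin monomer binding and turnover genes a median of -0.12, with Tmsb4x and Tmsb15a the 2 called of 29.

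Several other genes were far higher in clone 1. Rab15, a small GTPase of endosomal recycling, was at 0.20, 4.03 and 2.92 in wild-type cells, 6.09 in clone 1 and 3.87 in clone 2 (4.66-fold). Prkg2, the type II cGMP-dependent kinase, was at 0.27, 3.26 and 3.83 in wild-type cells, 2.53 in clone 1 and -0.05 in clone 2 (6.0-fold). Both had low levels with vehicle, and for Prkg2 clone 2 was near the vehicle level. Serpinf1 (3.16-fold), Fxyd5 (3.09-fold), Anxa3 (2.93-fold) and Fstl1 (2.89-fold) were higher in clone 1 with all measured probes in the same direction. The X-linked gene models Gm10487, Gm2030 and Gm1993 were 6.01-fold, 4.36-fold and 3.49-fold higher in clone 1. They may share sequence, so a probe may read more than 1 of them. In the other direction Mgll, the monoglyceride lipase, was 4.11-fold higher in clone 2, with levels of 3.05, 1.48 and 0.75 in wild-type cells, 1.41 in clone 1 and 3.45 in clone 2.

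Some genes were above background in only 1 of the clones, and some of these had signal in wild-type cells. Lama3, Cfap97d1 and Methig1 were above background in clone 2 alone by at least 19.6-fold, 16.9-fold and 16.4-fold, with levels of -5.92 or lower on the other 4 arrays. The other probe of Lama3 was not above background in either clone, at -5.96 in clone 2. Miga1 was at least 22.7-fold higher in clone 2 because clone 1 stood apart, at -6.12 against -1.91 to 0.30 on the other arrays. In the other direction Proser2 was at 0.63 in clone 1, -5.99 in clone 2 and -2.95 to -2.03 in wild-type cells (at least 19.6-fold). Cd276, encoding the checkpoint molecule B7-H3, was at 0.41 in clone 1, -3.87 in clone 2 and -0.44 to 0.23 in wild-type cells (at least 16.8-fold). Both were above background on all wild-type arrays. Mfsd8 was at least 20.2-fold higher in clone 1 by its brightest probe, but its other probe differed by -0.45.

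The order of genes along the chromosomes held 1 long stretch with a shared difference. In the running median of 21 neighbouring genes, ordered by the RefSeq annotation, 57 consecutive windows at the end of the X chromosome lay at 0.5 or more, with a maximum of 1.10. The next longest run past 0.5 in either direction held 7 windows, on chromosome 16. The stretch was delimited after its values were seen, from Lhfpl1 to Mid1, the last X gene measured, and therefore carries no test. It held 67 genes, with a median difference of 0.96 (quartiles 0.69 and 1.19) and 61 of 67 above 0. In it 29 genes were higher in clone 2 and 1 was higher in clone 1, against 10 and 11 of the remaining 338 X genes, whose median was -0.02. The 29 genes were 74.4% of the X genes higher in clone 2.

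Clone 1 was the array that stood apart there. Relative to wild-type cells with TGF-β1 the stretch had a median of -0.72 in clone 1, with 57 of 67 genes lower, and 0.19 in clone 2, with 17 lower. Huwe1, a ubiquitin ligase, was at 4.08, 4.14 and 4.23 in wild-type cells, 3.14 in clone 1 and 4.23 in clone 2. Kdm5c, a histone demethylase, was at 3.07, 2.93 and 3.05 in wild-type cells, 2.01 in clone 1 and 3.20 in clone 2. In both, clone 1 was the lowest array, about 1 log2 unit below, and the other 4 were close together. Ubqln2 (1.25), Prps2 (1.19), Phf8 (1.12) and Smc1a (0.95) also had clone 1 as the lowest array, and so did Shroom2, whose 3 probes ranged from 1.56 to 2.03. These genes were picked after their values were seen.

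Tmsb4x lies within this stretch and went against it. It was the 1 gene of the 67 called higher in clone 1, a call lost with the deposited table's scaling, and without it the median of the other 66 was 0.97. Clone 1 had Tmsb4x at 1.68 and its neighbours at a median of 0.72 below wild-type cells with TGF-β1, whereas clone 2 had Tmsb4x at 2.84 below with its neighbours at 0.19 above. Gpr143 and Tlr7 of the lists above also lie there, and Gpr143 did not follow the medians of its neighbours, at 0.01 below wild-type cells with TGF-β1 in clone 1 and 1.37 above in clone 2. Tlr7 was lower than wild-type cells in both clones, by 0.81 and 0.70. Of the 307 genes on both arrays that were higher in clone 2, 29 were in this stretch, 46 were pooled interferon genes and 232 were in neither.

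**Figure D4:**
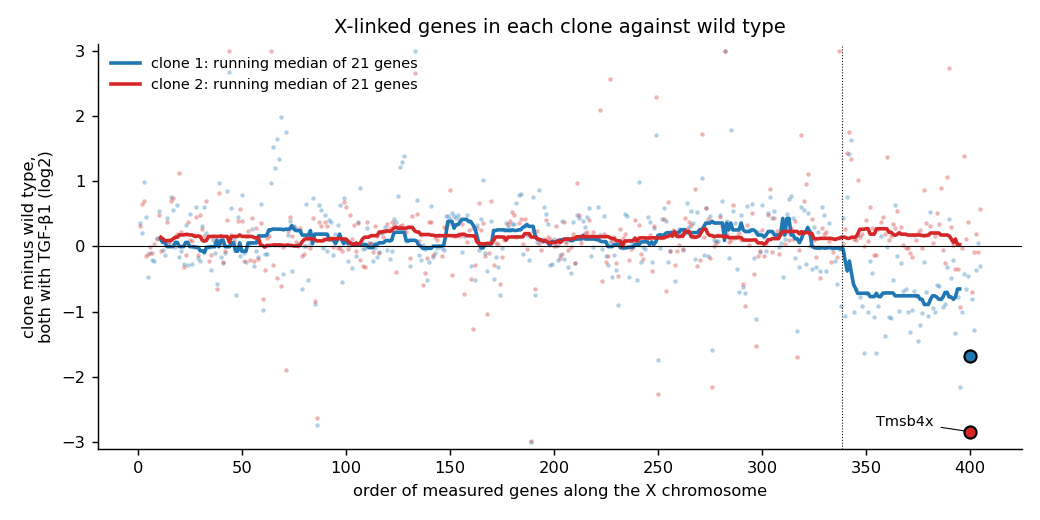
Difference of clone 1 (blue) and clone 2 (red) from wild-type cells with TGF-β1 (y axis, log2) for 405 X-linked genes in their order along the chromosome (x axis); points are genes, drawn at 3 or -3 where they lie beyond, and lines are running medians of 21 genes. Right of the dotted line, where the stretch of 67 genes begins, the blue line drops to -0.89 at its lowest while the red line does not. The lines end before Tmsb4x, whose outlined points lie at -1.68 in clone 1 and -2.84 in clone 2.

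Whole chromosomes differed less, and in clone 2. The median difference was -0.32 on chromosome 16, -0.28 on chromosome 14, -0.25 on chromosome 9, -0.22 on chromosome 12 and -0.17 on chromosome 8, against -0.02 for all placed genes. On chromosomes 9, 14 and 16, 77.3%, 77.5% and 76.0% of genes were below 0, against 52.5% overall. With the deposited table's scaling the 5 medians became 0.00, 0.04, 0.07, 0.10 and 0.15 in that order, all below the 0.27 of all genes. Relative to wild-type cells with TGF-β1 these chromosomes were at -0.24, -0.19, -0.25, -0.14 and -0.13 in clone 2 and between 0.02 and 0.10 in clone 1. The highest median was 0.11, on chromosome 10. The running median passed -0.5 only in short runs on chromosome 16, with an extreme of -0.57, and on chromosome 13, between H2bc6 and Hfe, at -0.53. The pooled interferon genes that were higher in clone 2 included genes on 4 of these chromosomes, such as Bst2 on chromosome 8, Rsad2 on chromosome 12, Irf9 on chromosome 14 and Rtp4 on chromosome 16, against the direction of those chromosomes.

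**Figure D5:**
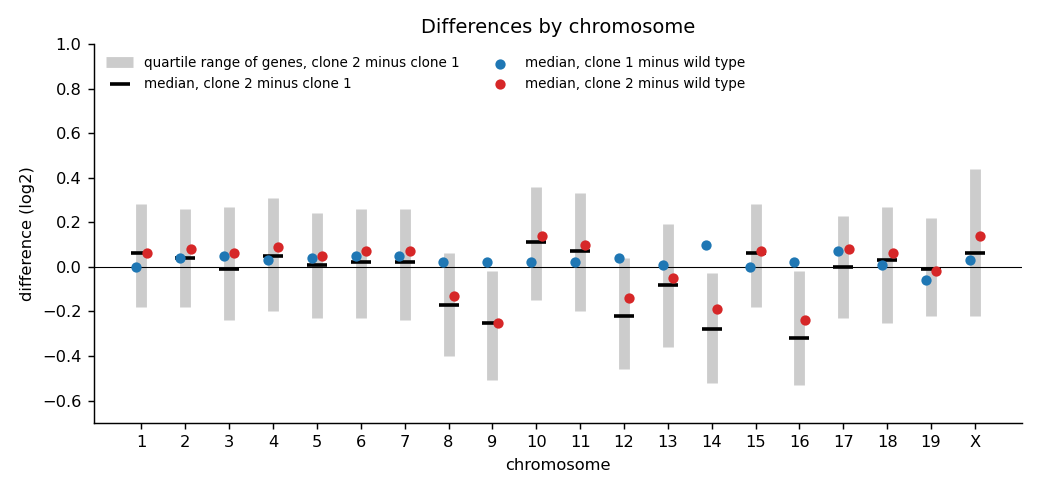
Median difference between the clones by chromosome (black bars, clone 2 minus clone 1, log2, with the range between the quartiles in grey) and the median of each clone minus wild-type cells with TGF-β1 (blue clone 1, red clone 2). Chromosomes 8, 9, 12, 14 and 16 have black and red medians below -0.10 with blue medians near 0; the X median of 0.06 averages its last stretch with the rest.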

How the data were processed

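Total RNA of 5 samples was labelled with Cy3 and hybridised to 1-colour Agilent mouse arrays, 1 array per sample. The deposited scanner files hold the intensity of each spot, background-subtracted and corrected by Agilent Feature Extraction 12.0.3.1, per the file headers and the submitters' processing notes, and the headers name probe positions of the NCBI37 (mm9) build. The authors' deposited value table holds the same intensity on a linear scale, each array multiplied by its own constant, and was used as an alternative.

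Control spots (3671 of 59305 per array) and outlier spots (107 to 141) were left out, spots of a probe were averaged, and log2 processed intensity minus the array's 75th percentile over all remaining probes was taken as the level. Of 56595 probes, 32988 carried a gene name, for 22907 genes, and 30635 were well above background on at least 1 clone array. A gene was represented by its brightest probe over the 5 arrays. A side not well above background was set to the lowest signal above background on that array (a level of -4.20 in clone 1 and -3.66 in clone 2) when that was higher, and the fold is then a bound. No test was run, since each clone has 1 array. The script was checked on simulated arrays.

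The members and the 51 gene lists were chosen with earlier results of these data known. Genes named are Tmsb4x and Tmsb10, the 15 most higher and 15 most lower in clone 2 on both arrays (above the median level, all probes in the same direction), the 6 largest bounds in each direction, up to 3 called members per list and direction, and every member of a list with a median of 1 or more. Others are given as members that did not reach the call, or are said to have been picked later. Lists with fewer than 3 measured genes were not summarised. Chromosomes, gene order and promoters came from RefSeq tables of GRCm38.p6, matched by symbol. Of the 13849 genes, 12366 of those on both arrays were placed and 11041 had a promoter. Files were read with Python 3.11.15, pandas 2.3.3 and numpy 2.4.6, and normexp background correction (offset 50) with limma 3.58.1 in R 4.3.3 was an alternative. It used the spot median signal, because the scanner files hold no mean signal column. Some genes are counted within their lists but not reported by name here.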

Additional observations from a re-analysis of the deposited data

Results flagged for a closer look

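In 3 lists the clones' medians lay on opposite sides of wild-type cells with TGF-β1 by at least 0.5 on the log2 scale, and the difference was not tested because each clone has 1 array. The oligoadenylate synthetases had a difference between the clones of 3.37, with clone 1 at -1.84 and clone 2 at 1.53. The interferon-induced antiviral effectors had a difference of 1.93, with clone 1 at -0.89 and clone 2 at 0.78. The interferon-inducible GTPases had a difference of 3.25, with clone 1 at -1.67 and clone 2 at 1.18. Groups of 1 array cannot be examined for outlying samples.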

How the results depend on the processing

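No paired analysis was possible because each group has 1 array. No named gene past 2-fold changed its sign under the alternatives run (1116 values within the software error of the reported one and 227 beyond it). The value table as deposited gave 1085 genes higher in clone 2 and 281 higher in clone 1. Its medians were 1.25 for nucleic acid sensors, 3.69 for oligoadenylate synthetases, 2.25 for effectors, 3.57 for GTPases and 1.28 for the end of X. It gave a Tmsb4x difference of -0.84, and 37.8% of called genes had the wild-type level nearer to clone 1. That table has its own constant for each array in place of the scaling to the 75th percentile, and list medians near 0 changed sign with it. Background correction by normexp gave 271 and 222 genes and medians of 0.70, 1.90, 1.32 and 1.79 for the same 4 lists, the cause of which was not tested. Requiring signal above background on both arrays gave 307 and 236 genes and an oligoadenylate synthetase median of 3.05, since fewer genes remain. No filter gave 1506 and 845 genes and medians of 2.35, 1.58 and 1.87 for oligoadenylate synthetases, effectors and GTPases, with unmeasured genes included. Without the floor 831 genes were higher in clone 1. The mean over probes gave an oligoadenylate synthetase median of 3.66. All probes, named or not, gave 1381 and 1071 probes, and a 3-fold threshold gave 285 and 201 genes. The faintest signals measured, 15.3 in clone 1 and 26 in clone 2, limit what can be seen in dim genes, and 1 array per clone leaves the spread between cultures unknown.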

Other observations

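Cholesterol synthesis genes had a median of 0.18 over 23, against -0.05 for all genes, with Hsd17b7, a sterol reductase, 2.46-fold higher in clone 2 and the others below 2-fold. Both clones were above wild-type cells with TGF-β1 for this list, with medians of 0.41 in clone 1 and 0.45 in clone 2. NRF2 antioxidant targets had a median of 0.00 over 25 and none called. DNA methylation and chromatin silencing genes had a median of 0.00 over 22 and none called, with Dnmt1 at -0.28, Uhrf1 at -0.46, Setdb1 at 0.23 and Trim28 at 0.12. CDK inhibitor and senescence genes had a median of -0.46 over 10 (-0.14 with the scaling of the deposited table), with Gdf15 5.19-fold higher in clone 1 and Igfbp7 2.44-fold higher in clone 2. Germline and cancer-testis genes had a median of -0.28 over 10 (0.04 with that scaling) and none called.

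Notch pathway genes had a median of -0.51 over 10 (-0.19 with the scaling of the deposited table). Hes1, a Notch target, was 2.02-fold higher in clone 1, and the ligand gene Jag1 (-0.95) and Notch1 (-0.74) were below 2-fold. Semaphorin, plexin and ephrin genes had a median of 0.19 over 24, with Sema3c 2.23-fold and Plxnc1 2.10-fold higher in clone 2. Snai2 and Plaur, both associated with invasion, were 2.13-fold and 2.86-fold higher in clone 1, and Lef1, the nuclear effector of Wnt signalling, was 2.08-fold higher in clone 1. Ngfr, a neural crest receptor, was above background in clone 2 alone, at least 5.04-fold higher. It was read by 1 probe, with a software error of 1.46 and levels of -6.23 or lower on every other array.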
